A study of Mus musculus with 6 samples.

Results

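The genes described here encode the constitutive proteasome: its core particle, its regulatory cap, its other activators, its inhibitor and the factors that assemble it. Members were the rows of the count table whose gene symbol starts with Psma to Psmg and a digit, leaving out the interferon-inducible subunits Psmb8, Psmb9 and Psmb10. The rule found 45 of the 14515 gene rows. Of these, Psmc3ip, a meiotic recombination gene, matched by its letters only, and the other 44 are genes of the proteasome. They comprise 7 core alpha, 8 core beta, 6 cap ATPase, 11 cap non-ATPase, 4 activator, 1 inhibitor and 7 chaperone genes. The libraries came from naive CD8 T cells of the spleens of 3 LAIR-1-deficient (Lair1-/-) and 3 wild type (Lair1+/+) mice. LAIR-1 is an inhibitory leukocyte receptor for collagen, and the cells were taken at baseline, with no treatment in the labels. From each mouse 100000 cells were sorted by a gate for CD45, CD3 and CD8 and for lack of CD44, among other markers, and 1 library was made per mouse. No source used here gives the age, sex or strain of the mice or the structure of the Lair1 allele, and p-values measure the spread between these mice.

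The proteasome degrades proteins tagged with ubiquitin. Its core particle is a barrel of stacked rings: outer rings of alpha subunits, which gate the channel, and inner rings of beta subunits, of which Psmb5, Psmb6 and Psmb7 carry the active sites. The cap binds and unfolds substrates with a ring of ATPases and removes their ubiquitin with a lid of non-ATPase subunits. In T cells the proteasome turns over signalling proteins and makes the peptides shown on MHC class I, and immune cells also build an inducible form of the core. When proteasome activity is short, the transcription factor NFE2L1 raises the RNA of most subunits together, through antioxidant response elements in their promoters.

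Total counts over genes were between 5519748 and 7296424 in LAIR-1-deficient libraries, against 7974206 to 9187017 in wild type libraries, so every LAIR-1-deficient library was the shallower. Lair1 had 2, 1 and 1 counts in LAIR-1-deficient mice 1 to 3, against 58, 32 and 43 in wild type mice 1 to 3. It was the only gene of 9565 tested that edgeR called at an adjusted p under 0.05 (0.00255). Markers of the sorted cells were high: Cd8a and Cd8b1 summed to 2348 to 2465 CPM (counts scaled to a common library size) in LAIR-1-deficient libraries, against 2338 to 2566 CPM in wild type libraries. The 4 B cell markers summed to 25.3 to 32.3 CPM in LAIR-1-deficient libraries, against 29.7 to 32.5 CPM in wild type libraries. Markers of CD4 T cells, macrophages and monocytes, NK cells, dendritic cells, erythroid cells and neutrophils summed to between 0 and 7.11 CPM per list and library. The erythroid list held only Alas2, with no globin gene, and the neutrophil list only S100a8 and S100a9. The libraries of mouse 1 of both genotypes stood apart in immediate early genes, as described below. In bulk RNA, fewer cells of a type and less RNA per cell cannot be told apart.

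Before the values, the promoters of 4 genes are shown: the catalytic subunits Psmb5 and Psmb6, and the assembly chaperones Psmd10 and Psmg3. Libraries of Psmd10 and Psmg3 did not overlap between genotypes, nor did those of Psmd6 and Psmd11, whose promoters are not shown. These 4 are 9.3% of the 43 members tested, near the 8.38% of all genes tested that did not overlap. A link between promoter sequence and level was not tested. The sequences are from RefSeq (GRCm38.p6), read 5′ to 3′ on the gene's strand, and run from 250 bases before the RefSeq start to the start, without bases that GENCODE vM21 places inside the gene. They lie at chr14:54618023-54618245 on the minus strand (Psmb5), chr11:70525107-70525356 on the plus strand (Psmb6), chrX:140956729-140956961 on the minus strand (Psmd10) and chr5:139826895-139827144 on the minus strand (Psmg3). Capitals mark the letters TGACNNNGC of an antioxidant response element in Psmb5 and Psmb6, and the letters of a CCAAT box, CCAAT or its reverse complement ATTGG, in Psmd10. Psmg3 held neither in this window.
Psmb5: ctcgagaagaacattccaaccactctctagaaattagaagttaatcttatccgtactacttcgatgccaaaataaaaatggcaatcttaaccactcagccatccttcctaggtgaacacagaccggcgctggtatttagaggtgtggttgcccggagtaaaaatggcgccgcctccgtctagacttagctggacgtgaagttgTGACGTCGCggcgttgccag
Psmb6: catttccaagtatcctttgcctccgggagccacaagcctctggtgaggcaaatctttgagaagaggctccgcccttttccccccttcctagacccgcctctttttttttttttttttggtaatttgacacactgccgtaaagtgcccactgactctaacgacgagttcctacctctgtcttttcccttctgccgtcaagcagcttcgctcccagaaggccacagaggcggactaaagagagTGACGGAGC
Psmd10: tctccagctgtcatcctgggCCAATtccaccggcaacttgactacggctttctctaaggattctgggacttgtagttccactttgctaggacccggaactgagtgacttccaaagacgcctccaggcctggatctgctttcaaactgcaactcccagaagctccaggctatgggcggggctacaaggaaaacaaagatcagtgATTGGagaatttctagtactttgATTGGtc
Psmg3: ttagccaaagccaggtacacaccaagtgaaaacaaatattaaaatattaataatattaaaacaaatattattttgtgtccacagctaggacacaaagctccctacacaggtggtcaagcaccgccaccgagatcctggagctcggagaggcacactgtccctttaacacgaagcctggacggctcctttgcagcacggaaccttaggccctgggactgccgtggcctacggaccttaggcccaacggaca
Promoters of 37 of the 44 proteasome genes, 40 in all, matched the RefSeq table. The counts that follow searched the full 250 bases before the RefSeq start, including bases that GENCODE vM21 places inside the gene. TGACNNNGC stood on either strand of 5 of the 40 (12.5%), against 10.2% of all 32851 promoters. These 5 belonged to Psmb5, Psmb6, Psmc6, Psmd12 and Psmd9. CCAAT stood in 13 of the 40 (32.5%), against 33.8% of all promoters, so both motifs were about as frequent in these windows as in all promoters. The search allowed both strands, and none of the sequences shown held both motifs. Letters in a window are a description of sequence and not of binding.

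For no proteasome gene was a difference between the genotypes detected, and most were measured closely enough to bound it within 1.5-fold. Levels are CPM with library sizes scaled by TMM, and a log2 fold change is LAIR-1-deficient over wild type. Of the 44 genes, 43 passed the filter on low counts and were tested, and edgeR called 0 of them in either direction, where 0.0105% of all genes tested were called. None of the 43 reached an unadjusted p under 0.05, against 3.25% of all genes, and each had an adjusted p of 0.9999. DESeq2 and limma-voom also called 0 of them, and with each tool 0 had an unadjusted p under 0.05. For 41 of 43 (95.3%), the 95% interval excluded changes beyond 1.5-fold in either direction, against 63.2% of all genes and 89.6% of the 5668 genes with mean levels in the members' range of 12.5 to 291 CPM. The exceptions were Psmd10 and Psmg3.

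The fold changes leaned to the negative side by a small amount that 1 library could nearly remove. Of the 43 genes, 29 had a negative and 14 a positive log2 fold change, or 67.4% negative and 32.6% positive against 49.8% negative and 50.2% positive over all genes, with a median of -0.05 against 0.00059 over all genes. The genes are not independent of each other, and this lean has no test of its own. Without wild type mouse 2, which had the highest core alpha levels, the median was -0.0076. Without mouse 1 of both genotypes it was -0.024. Summed over the 44 genes, the level was 3475, 3366 and 3363 CPM in LAIR-1-deficient mice 1 to 3, against 3497, 3537 and 3419 CPM in wild type mice 1 to 3. The groups overlapped in this sum, whose means were 3401 ± 63.7 CPM in LAIR-1-deficient cells and 3484 ± 59.7 CPM in wild type cells (SD, n = 3 each).

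**Figure D1:**
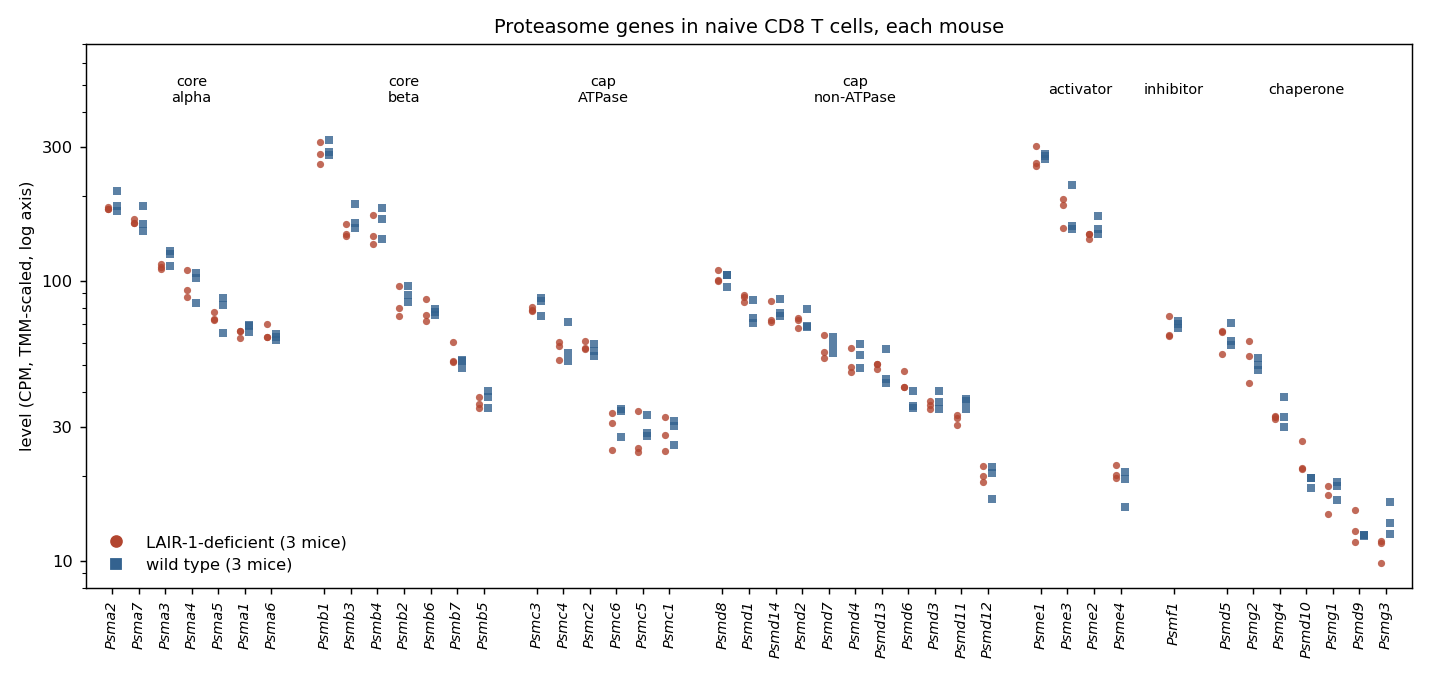
Level of each tested proteasome gene (CPM, log axis) in each of 3 LAIR-1-deficient (circles) and 3 wild type (squares) mice, with genes ordered by mean level within each role. Levels, not divided by length, span 12.5 CPM (Psmg3) to 291 CPM (Psmb1), and the points of the genotypes overlap in all genes but Psmd6, Psmd11, Psmd10 and Psmg3. Those 4 are 9.3% of the 43 genes, near the 8.38% without overlap over all genes tested.

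The core alpha genes were all expressed and lay close together between genotypes. Psma2, the alpha ring subunit with the most counts, was at 181, 183 and 181 CPM in LAIR-1-deficient mice 1 to 3, against 177, 209 and 185 CPM in wild type mice 1 to 3. The LAIR-1-deficient mice lay within the wild type range, and wild type mouse 2 was the highest. Its log2 fold change was -0.067 (95% interval -0.27 to 0.13). Psma3, another ring subunit, was at 112, 115 and 110.5 CPM in LAIR-1-deficient mice 1 to 3, against 124, 128 and 113 CPM in wild type mice 1 to 3. Wild type mice 1 and 2 lay highest, wild type mouse 3 lay among the LAIR-1-deficient mice, and the log2 fold change was -0.11 (95% interval -0.32 to 0.091). The other alpha genes had log2 fold changes of -0.066 (Psma1), -0.0093 (Psma4), -0.069 (Psma5), 0.053 (Psma6) and -0.020 (Psma7). In all, 6 of the 7 alpha genes had a negative value and none passed the test, with a median of -0.066, and of 0.017 without wild type mouse 2.

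The core beta genes included the catalytic subunits, for which no difference was detected. Psmb5, the chymotrypsin-like subunit and the target of bortezomib, was at 36.3, 35.0 and 38.6 CPM in LAIR-1-deficient mice 1 to 3, against 40.5, 38.5 and 35.0 CPM in wild type mice 1 to 3. Both groups spanned nearly the same range, and the log2 fold change was -0.051 (95% interval -0.31 to 0.21). Psmb5 shares exon bases with Mir686 on the same strand. Psmb6, the caspase-like subunit, was at 75.4, 71.9 and 86.3 CPM in LAIR-1-deficient mice 1 to 3, against 75.2, 77.1 and 79.4 CPM in wild type mice 1 to 3. LAIR-1-deficient mouse 3 was the highest and LAIR-1-deficient mouse 2 the lowest, so the wild type mice lay between them, with a log2 fold change of 0.012 (95% interval -0.21 to 0.24). Psmb7, the trypsin-like subunit, was at 60.4, 51.0 and 51.8 CPM in LAIR-1-deficient mice 1 to 3, against 48.9, 51.7 and 51.9 CPM in wild type mice 1 to 3. LAIR-1-deficient mouse 1 stood above the other 5 libraries, and the log2 fold change was 0.099 (95% interval -0.15 to 0.34). Psmb7 shares exon bases with Nek6 on the other strand, and without a stated strand setting their reads cannot be told apart.

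No difference was detected in the noncatalytic beta subunits, which shape the inner rings. Psmb1 was at 314, 260.0 and 284 CPM in LAIR-1-deficient mice 1 to 3, against 319, 287 and 281 CPM in wild type mice 1 to 3. Mouse 1 was the highest of each genotype, the groups overlapped, and the log2 fold change was -0.049 (95% interval -0.25 to 0.15). Psmb3 was at 159, 147 and 144 CPM in LAIR-1-deficient mice 1 to 3, against 187, 154 and 160.1 CPM in wild type mice 1 to 3. Wild type mouse 1 stood above the rest, LAIR-1-deficient mouse 1 lay among the wild type values, and the log2 fold change was -0.16 (95% interval -0.37 to 0.057). Psmb4 was at 171, 135 and 144 CPM in LAIR-1-deficient mice 1 to 3, against 181, 166 and 141 CPM in wild type mice 1 to 3. Mouse 1 was again the highest of each genotype, and the log2 fold change was -0.12 (95% interval -0.36 to 0.12). Psmb2 had a log2 fold change of -0.10, and the median of the 7 tested beta genes was -0.051, with 5 negative and 2 positive values and none past the test. Without LAIR-1-deficient mouse 1 this median was -0.12, and without wild type mouse 1 it was -0.0070. Psmb11, the subunit of the thymus-specific proteasome of cortical epithelial cells, had 2, 0 and 0 counts in LAIR-1-deficient mice 1 to 3, against 3, 0 and 0 in wild type mice 1 to 3, and was not tested.

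The constitutive catalytic subunits share their places in the core with inducible counterparts, and no difference in the RNA balance within a pair was detected between the genotypes. Levels were divided by the length of the principal transcript to compare genes, since longer transcripts can yield more reads. On this scale the share of Psmb6 in its pair with Psmb9 was 59.3, 60.3 and 67.2% in LAIR-1-deficient mice 1 to 3, against 62.7, 62.2 and 64.5% in wild type mice 1 to 3. The share of Psmb7 in its pair with Psmb10 was 37.7, 33.8 and 32.0% in LAIR-1-deficient mice 1 to 3, against 32.6, 32.6 and 36.3% in wild type mice 1 to 3. The share of Psmb5 in its pair with Psmb8 was 21.1, 21.0 and 23.0% in LAIR-1-deficient mice 1 to 3, against 23.9, 21.3 and 22.1% in wild type mice 1 to 3. Psmb6 thus exceeded its counterpart in every library, while Psmb7 and Psmb5 were the minor partner in every library, and the groups overlapped in all 3 pairs. LAIR-1-deficient minus wild type means differed by -0.88, 0.75 and -0.79 percentage points (two-sided exact permutation p = 0.8, 0.7 and 0.5, each 0.8 after Benjamini-Hochberg adjustment over the 3 pairs, where 0.1 is the smallest raw p that 3 against 3 allows). By counts without length, the constitutive share was between 46.3 and 54.8% for Psmb6, 29.4 and 34.9% for Psmb7 and 12.8 and 14.8% for Psmb5. Whether Psmb6 was the larger partner therefore depended on the length scale, and no source used here states which part of the transcript the reads cover. The inducible genes themselves had log2 fold changes of 0.013 (Psmb8), 0.061 (Psmb9) and 0.046 (Psmb10).

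**Figure D2:**
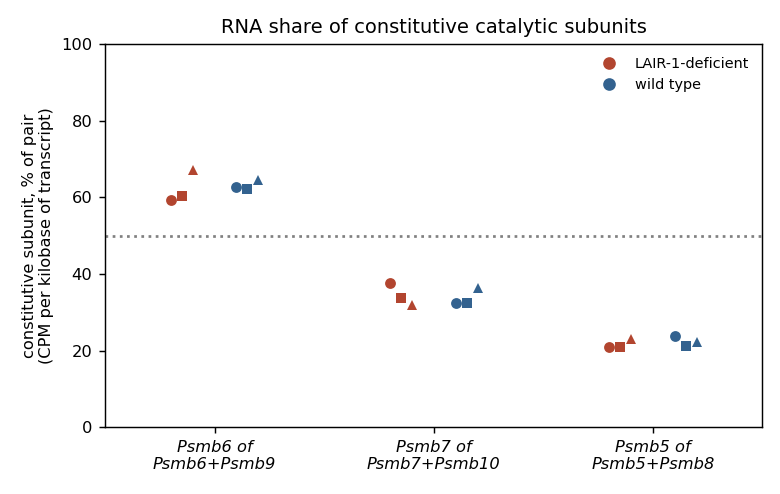
Share of the constitutive subunit in each catalytic pair, in percent of the pair's summed CPM per kilobase of transcript, in LAIR-1-deficient (red, left) and wild type (blue, right) mice, where circles, squares and triangles are mice 1, 2 and 3. The Psmb6 share lies above the dotted 50% line in every mouse and the Psmb7 and Psmb5 shares below it, with overlapping genotypes in each pair.

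The cap ATPases, which form the unfolding ring at the base of the cap, gave no call. Psmc3, the one with the most counts, was at 78.3, 80.4 and 77.9 CPM in LAIR-1-deficient mice 1 to 3, against 86.4, 84.8 and 74.6 CPM in wild type mice 1 to 3. The LAIR-1-deficient mice were close together inside the wild type range, and the log2 fold change was -0.055 (95% interval -0.27 to 0.16). Psmc3 shares exon bases with Slc39a13 on the other strand, and the same limit holds. Psmc5 was at 34.3, 24.4 and 25.2 CPM in LAIR-1-deficient mice 1 to 3, against 33.2, 27.8 and 28.6 CPM in wild type mice 1 to 3. Mouse 1 was the highest of each genotype, and the log2 fold change was -0.091 (95% interval -0.41 to 0.23). It was -0.27 without LAIR-1-deficient mouse 1 and -0.0058 without LAIR-1-deficient mouse 2. Psmc6 was at 24.8, 31.1 and 33.8 CPM in LAIR-1-deficient mice 1 to 3, against 34.2, 27.6 and 34.9 CPM in wild type mice 1 to 3. LAIR-1-deficient mouse 1 was the lowest library, and the log2 fold change was -0.11 (95% interval -0.42 to 0.20). Psmc1, Psmc2 and Psmc4 had log2 fold changes of -0.032, 0.048 and -0.058. Of the 6 ATPase genes, 5 had a negative value, with a median of -0.057, and of 0.0097 without mouse 1 of both genotypes.

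The cap non-ATPase genes included Psmd6 and Psmd11, whose libraries did not overlap between genotypes but which did not pass the test. Over all tested members the share without overlap was 9.3%, near the 8.38% of all genes tested. Psmd6, a subunit of the lid, was at 41.8, 47.7 and 41.6 CPM in LAIR-1-deficient mice 1 to 3, against 35.1, 35.7 and 40.3 CPM in wild type mice 1 to 3. Every LAIR-1-deficient mouse lay above every wild type mouse, with a gap of little more than 1 CPM between the nearest libraries. The log2 fold change was 0.24 (95% interval -0.026 to 0.50), and its unadjusted p was the smallest of the 43 genes. The Psmd6 gene lies on the minus strand of chromosome 14, between 14112174 and 14120984 (GRCm38). Psmd11, also of the lid, was at 33.2, 30.6 and 32.3 CPM in LAIR-1-deficient mice 1 to 3, against 34.7, 37.9 and 37.0 CPM in wild type mice 1 to 3. Here every LAIR-1-deficient mouse lay below every wild type mouse, and the log2 fold change was -0.19 (95% interval -0.45 to 0.070). Psmd1, the large scaffold subunit at the base of the cap, was at 87.1, 83.8 and 89.1 CPM in LAIR-1-deficient mice 1 to 3, against 70.6, 73.4 and 85.5 CPM in wild type mice 1 to 3. Wild type mouse 3 lay among the LAIR-1-deficient mice and the other wild type mice below them, with a log2 fold change of 0.18 (95% interval -0.046 to 0.41). Psmd1 shares exon bases with Gm21972 on its own strand and with Htr2b on the other. Without wild type mouse 3, Psmd1 and Psmd6 reached an unadjusted edgeR p under 0.05, with log2 fold changes of 0.27 and 0.30. These were 2 of 43 members, where 353 of all 9693 genes tested in that fit reached it, and 0 members passed after adjustment.

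The remaining cap genes were closer to equal. Psmd8, the lid subunit with the most counts, was at 100.3, 109.6 and 99.7 CPM in LAIR-1-deficient mice 1 to 3, against 105, 105 and 94.7 CPM in wild type mice 1 to 3. The ranges overlapped, with LAIR-1-deficient mouse 2 the highest and wild type mouse 3 the lowest library, and the log2 fold change was 0.022 (95% interval -0.19 to 0.23). Psmd14, the deubiquitinase of the lid, had a log2 fold change of -0.056, and Psmd4, a ubiquitin receptor, of -0.073. Psmd2, the other large scaffold at the base, was at -0.017 on the same scale, and Psmd3, Psmd7, Psmd12 and Psmd13 lay between -0.057 and 0.046. The 11 non-ATPase genes had 5 positive and 6 negative values with a median of -0.017, and 0.016 without LAIR-1-deficient mouse 1. Over all tested members, the groups did not overlap for 4 of 43 genes (9.3%), against 8.38% of all genes tested, which is near the background. Of the 4, 2 were higher and 2 lower, where 4.3% of all genes were higher without overlap and 4.09% lower.

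**Figure D3:**
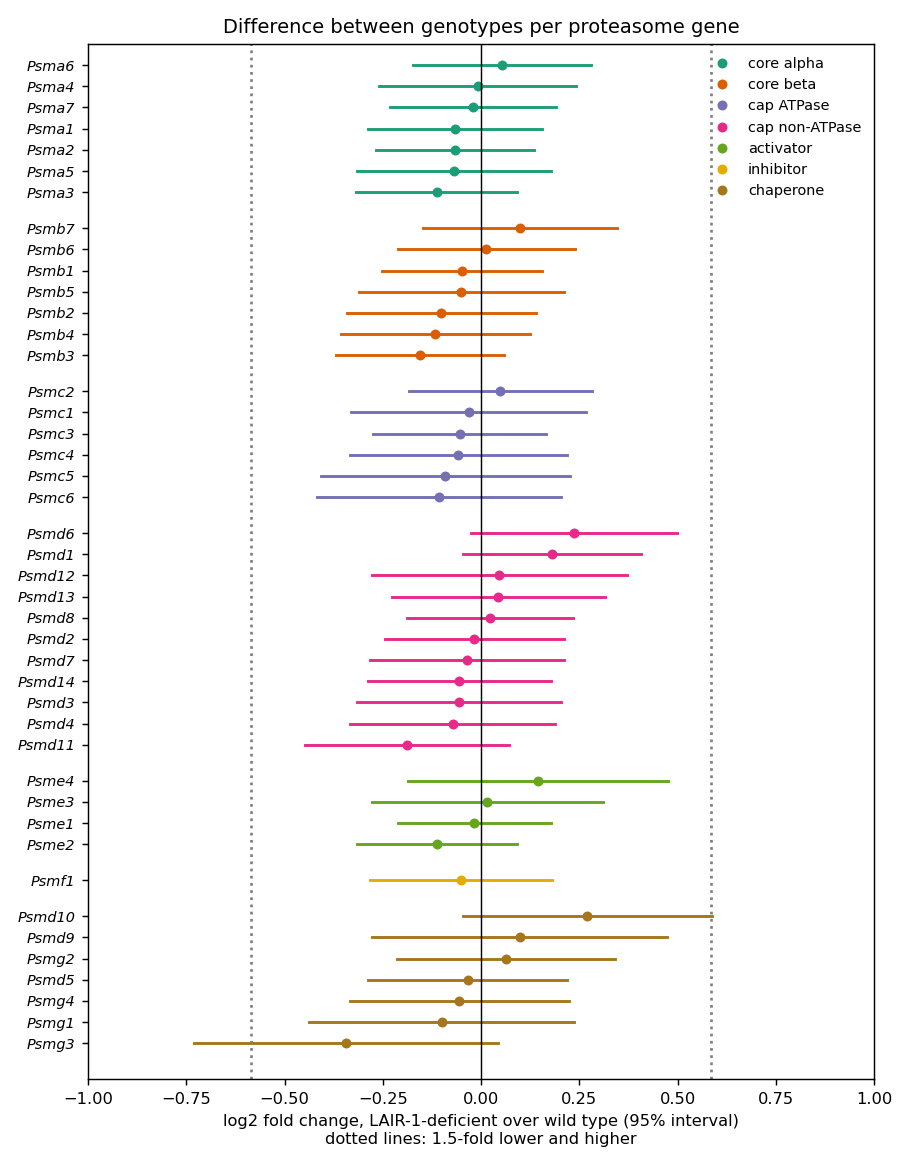
Log2 fold change of each tested proteasome gene, LAIR-1-deficient over wild type, with its 95% interval from edgeR, grouped by role (colours) and with dotted lines at 1.5-fold. All 43 intervals include 0, and those of Psmd10 and Psmg3 alone reach past a dotted line.

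The activators open the core in place of the cap, and none passed the test. Psme1, a subunit of the cytosolic activator that interferon induces, was at 303, 264 and 257 CPM in LAIR-1-deficient mice 1 to 3, against 273, 283 and 279 CPM in wild type mice 1 to 3. LAIR-1-deficient mouse 1 was the highest and the other LAIR-1-deficient mice the lowest libraries, and the log2 fold change was -0.018 (95% interval -0.21 to 0.18). Psme1 shares exon bases with Emc9 on the other strand. Psme2, its partner subunit, was at 147, 140.3 and 147 CPM in LAIR-1-deficient mice 1 to 3, against 153, 170.5 and 146 CPM in wild type mice 1 to 3. Wild type mouse 2 was the highest, the other wild type mice were close to the LAIR-1-deficient ones, and the log2 fold change was -0.11 (95% interval -0.32 to 0.092). Psme4, a nuclear activator, was at 20.2, 19.7 and 21.9 CPM in LAIR-1-deficient mice 1 to 3, against 15.5, 19.6 and 20.8 CPM in wild type mice 1 to 3. Wild type mouse 1 was the lowest library and the others overlapped, with a log2 fold change of 0.14 (95% interval -0.19 to 0.47), or 0.032 without wild type mouse 1. Psme3, the nuclear relative of Psme1 and Psme2, had the widest spread of the 4, with 187, 195 and 154 CPM in LAIR-1-deficient mice 1 to 3, against 156, 153 and 220.0 CPM in wild type mice 1 to 3, and a log2 fold change of 0.016. The median of the 4 genes was -0.00083, and it was 0.093 without wild type mouse 3, which had the highest Psme3 level, and -0.11 without mouse 1 of both genotypes. Psmf1, an inhibitor of the core in vitro and the only member of its class, was at 63.4, 74.9 and 64.0 CPM in LAIR-1-deficient mice 1 to 3, against 70.1, 67.7 and 71.6 CPM in wild type mice 1 to 3. LAIR-1-deficient mouse 2 was the highest and the other LAIR-1-deficient mice the lowest, and the log2 fold change was -0.052 (95% interval -0.28 to 0.18).

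The assembly chaperones had the lowest median level per kilobase of transcript of all classes, 14.8 CPM, and held both genes whose interval reached past 1.5-fold. Psmd10 (gankyrin), which binds a cap ATPase during assembly of the base, was at 21.2, 21.3 and 26.8 CPM in LAIR-1-deficient mice 1 to 3, against 18.2, 19.7 and 19.7 CPM in wild type mice 1 to 3. Every LAIR-1-deficient mouse lay above every wild type mouse, and LAIR-1-deficient mouse 3 stood highest. The log2 fold change was 0.27 (95% interval -0.047 to 0.59), and leaving out any 1 library it lay between 0.15 (without LAIR-1-deficient mouse 3) and 0.33. Psmg3, which helps to assemble the alpha ring, was at 11.5, 9.78 and 11.8 CPM in LAIR-1-deficient mice 1 to 3, against 16.1, 12.5 and 13.6 CPM in wild type mice 1 to 3. Every LAIR-1-deficient mouse lay below every wild type mouse, and the counts behind these values were 80, 55 and 86 in LAIR-1-deficient mice and 128, 114 and 121 in wild type mice. The log2 fold change was -0.34 (95% interval -0.73 to 0.044), or 0.788-fold with an interval of 0.603 to 1.03, and it lay between -0.42 and -0.24 when any 1 library was left out. Psmg3 shares exon bases with Gm26938 on the same strand, and their reads cannot be told apart.

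Other chaperones did not share a direction. Psmd5, the base chaperone with the most counts, was at 54.5, 65.6 and 65.9 CPM in LAIR-1-deficient mice 1 to 3, against 58.8, 70.7 and 60.9 CPM in wild type mice 1 to 3. Mouse 1 was the lowest of each genotype, and the log2 fold change was -0.035 (95% interval -0.29 to 0.22). Psmd9, also of the base, had a log2 fold change of 0.098. Psmg1, Psmg2 and Psmg4, which act in alpha ring assembly with Psmg3, had -0.10, 0.064 and -0.055. Among the 7 chaperone genes 3 values were above 0 and 4 below it, and the median was -0.035, which was 0.05 without wild type mouse 2. Psmc3ip, the gene matched by its letters only, had 11, 16 and 25 counts in LAIR-1-deficient mice 1 to 3, against 26, 15 and 16 in wild type mice 1 to 3. Its log2 fold change was 0.24 (95% interval -0.68 to 1.15).

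Genes whose products form the same ring of the core differed several-fold in RNA level. Psmb5, Psmb6 and Psmb7 share their places with Psmb8, Psmb9 and Psmb10, which the ranges below leave out. Per kilobase of principal transcript, over all 6 libraries, the core alpha genes ran from 41.1 ± 2.50 CPM (Psma3) to 179 ± 12.8 CPM (Psma7), a ratio of 4.35 (SD, n = 6). The tested core beta genes ran from 41.5 ± 2.46 CPM (Psmb5) to 207 ± 20.2 CPM (Psmb3) per kilobase, a ratio of 4.99. The lowest of these beta genes on this scale was the catalytic Psmb5, which shares its place with Psmb8. The noncatalytic Psmb3 and Psmb1 were the highest. Cap ATPases ran from 13.9 ± 1.83 CPM (Psmc6) to 49.1 ± 2.73 CPM (Psmc3) per kilobase, and cap non-ATPases from 10.5 ± 0.984 CPM (Psmd12) to 66.5 ± 3.39 CPM (Psmd8). The median per kilobase was 61.5 CPM for core alpha and 101 CPM for core beta genes, against 27.0 CPM for cap ATPases and 26.2 CPM for cap non-ATPases. The activators held both ends of the whole set, Psme1 at 249 ± 14.7 CPM and Psme4 at 3.02 ± 0.334 CPM per kilobase. Without length, the core alpha genes ran from 64.1 CPM (Psma6) to 186 CPM (Psma2), a ratio of 2.90, and the core beta genes from Psmb5 to Psmb1 by a ratio of 7.79. The median was then 96.8 CPM for core alpha and 86.4 CPM for core beta genes, the reverse of their order per kilobase. For cap ATPases it was 44.2 CPM and for cap non-ATPases 52.7 CPM, also the reverse. The ends of the whole set were then Psmb1 at 291 CPM and Psmg3 at 12.5 CPM, not activators. These orders therefore depended on the length scale. The values per kilobase hold only if reads cover the whole transcript, and if 1 end alone is read the values without length apply. These levels are a description, and 7 of the 10 highest genes per kilobase were also among the 10 highest without length.

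Between mice of 1 genotype, the median spread was lower over the proteasome genes than over all genes tested, with no test of that difference. The median coefficient of variation over the 43 genes was 7.92% among LAIR-1-deficient mice and 7.81% among wild type mice, where all genes tested had 13.3% among LAIR-1-deficient mice and 11.8% among wild type mice. Single genes varied more, with 19.8% for Psmc5 among LAIR-1-deficient mice and 21.3% for Psme3 among wild type mice. Core alpha genes had a median of 3.08% among LAIR-1-deficient mice and 8.84% among wild type mice. Low counts raise this measure, and their part in the comparison was not tested.

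Mouse 1 of both genotypes carried high immediate early genes, the rapid transcripts that antigen receptor signals and tissue handling are known to induce. The share of proteasome genes that were highest there was near the share over all genes. Of 21 tested immediate early genes, 19 had their highest values in both mouse 1 libraries, above all 4 others, against 11.9% of all genes, and the list's median log2 deviation from each gene's mean over the libraries was 1.08, -0.59 and -0.45 in LAIR-1-deficient mice 1 to 3, against 0.69, -0.41 and -0.27 in wild type mice 1 to 3. Among the 43 proteasome genes, 6 (14%) had this pattern, which is near the share over all genes, and 2 (4.65%) the opposite one, against 12.1% of all genes. None of the 21 immediate early genes was called between the genotypes, and the 2 with the smallest unadjusted p, Myc and Ier3, had log2 fold changes of 0.15 and -0.32. The 6 proteasome genes were Psmb1, Psmb4, Psmc5, Psmd3, Psmd4 and Psmd13. For the core beta genes the median deviation was 0.11, -0.11 and -0.030 in LAIR-1-deficient mice 1 to 3, against 0.12, -0.005 and -0.039 in wild type mice 1 to 3. Mouse 1 was the highest library of each genotype in this class. For the core alpha genes it was -0.038, -0.017 and -0.027 in LAIR-1-deficient mice 1 to 3, against -0.038, 0.14 and -0.008 in wild type mice 1 to 3, so wild type mouse 2 stood out instead and mouse 1 did not. Over all 43 genes it was -0.018, -0.016 and -0.030 in LAIR-1-deficient mice 1 to 3, against 0.021, 0.040 and -0.031 in wild type mice 1 to 3, with overlapping groups. The part of immediate early induction in the proteasome values was not tested.

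**Figure D4:**
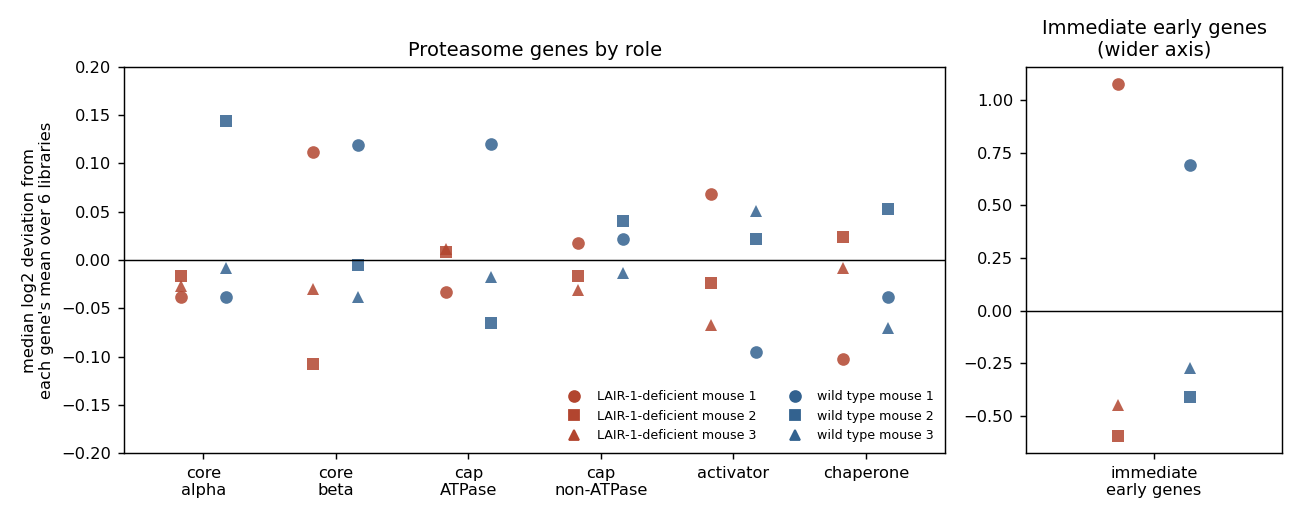
Median log2 deviation of each class of proteasome genes from each gene's mean over 6 libraries (left panel, without the inhibitor Psmf1), and the same for immediate early genes on a wider axis (right panel). Mice are LAIR-1-deficient (red) and wild type (blue), where circles, squares and triangles are mice 1, 2 and 3. Proteasome classes stay within 0.15 of 0 in every library, while immediate early genes reach 1.08 in LAIR-1-deficient mouse 1 and 0.69 in wild type mouse 1.

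The partners and regulators of the proteasome gave no call either, with 0 genes of each list past the edgeR test and 0 at an unadjusted p under 0.05. The 12 tested proteasome-associated factors had 3 positive and 9 negative log2 fold changes around a median of -0.049. Pomp, the maturation factor that completes the core, was at 88.2 ± 5.04 CPM in LAIR-1-deficient cells and 95.7 ± 7.78 CPM in wild type cells (SD, n = 3 each). Ube3a, a ubiquitin ligase, and Zfand5, which stimulates the proteasome, had log2 fold changes of -0.29 (95% interval -0.66 to 0.076) and -0.20 (95% interval -0.45 to 0.052). The 14 tested genes of transcriptional control had 5 positive and 9 negative values around a median of -0.052, and Ddi2 and Foxo3 did not pass the filter. Nfe2l1 was at 25.7 ± 1.26 CPM in LAIR-1-deficient cells and 24.6 ± 2.81 CPM in wild type cells (SD, n = 3 each), with a log2 fold change of 0.066 (95% interval -0.23 to 0.36). Ngly1, the enzyme that removes sugars from NFE2L1 so that it can act, and Nfe2l2, a relative of Nfe2l1, had -0.31 (95% interval -0.64 to 0.030) and 0.23 (95% interval -0.071 to 0.54). The 20 tested ubiquitin and shuttle genes had 9 positive and 11 negative values around a median of -0.013, and Ubb did not pass the filter. Uba6, a ubiquitin-activating enzyme, had -0.59 (95% interval -1.20 to 0.027), and Nploc4, a cofactor of the segregase VCP, had 0.23 (95% interval -0.062 to 0.52).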

How the data were processed

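Each mouse gave 1 sequencing library of total RNA from sorted cells, prepared with TruSeq small RNA primers of Illumina, per the labels' protocols. The authors deposited unnormalised counts per gene as whole numbers. BWA (version unstated) and the build mm10 appear in the submitters' processing notes. No source used here gives the annotation, the counting tool, the strand setting or molecular identifiers. Overlapping or near-identical genes, among them 4 annotated pseudogenes with symbols of the rule, therefore cannot be told apart.

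Columns were matched to mice by the sample descriptions. The 4 spike-in rows, with 0 to 4 counts in sum per library, were left out. No 2 libraries agreed within sampling noise (chi-square per gene between 5.39 and 26.1, where noise gives about 1). The test was that of edgeR 4.0.16 (R 4.3.3): filterByExpr with a smallest count of 10, TMM, a robust quasi-likelihood F test without covariate, two-sided, and Benjamini-Hochberg adjustment over 9565 genes with a threshold of 0.05. Each 95% interval uses a standard error taken from the F statistic. The code was tested on simulated counts. Gene positions and the APPRIS principal transcript lengths are from GENCODE vM21 (GRCm38, the build of mm10). Per-library deviations use log2 CPM with a prior count of 2. Alternatives were RLE factors, library totals, no filter, a smallest count of 30, DESeq2 1.42.0, limma-voom 3.58.1, mouse number as a block and leaving out libraries. Catalytic pairs and the mouse 1 pattern were added after the table was seen.

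The members and lists were chosen with earlier results of these data known. Full values are given for Psmb5, Psmb6 and Psmb7 and, per role, for the 2 tested genes lowest in unadjusted p and the one highest in mean CPM. Psmd11 and Psme3 were added after their values were seen. In the partner lists, the 2 genes with the smallest unadjusted p are named, and Pomp and Nfe2l1 for their role. Psma8 and Psme2b were not analysed here.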

Additional observations from a re-analysis of the deposited data

How the results depend on the processing

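No proteasome gene was called under any of the 14 alternative fits, and none of the 21 members named by rule, which leave out Psmd11 and Psme3, came under an adjusted p of 0.958. Over all genes, no filter gave 1 gene higher and 2 lower, a smallest count of 30 gave 0 lower because Lair1 was then not tested, and leaving out mouse 1 of both genotypes gave 0 lower (Lair1 adjusted p 0.0712). Leaving out 1 library gave 0 to 1 genes higher and 0 to 2 lower; without wild type mouse 1 Lair1 was at 0.0592. The median log2 fold change of the members stayed negative, between -0.066 and -0.0076 without 1 library and between -0.053 and -0.024 otherwise. Without 1 library, role medians lay between -0.051 and 0.016 for cap non-ATPases, -0.077 and 0.050 for chaperones, -0.061 and 0.093 for activators, -0.091 and 0.017 for core alpha, -0.12 and -0.0070 for core beta and -0.085 and -0.013 for cap ATPases. Without mouse 1 of both genotypes they were 0.017 for cap non-ATPases, 0.0097 for cap ATPases and -0.11 for activators. Members with an interval within 1.5-fold numbered 39 to 42.

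Of these 21 members, 9 had the other sign in some fit, at most 0.07 in size, and the cause was not tested. Without 1 library, log2 fold changes ranged from -0.12 to 0.0069 (Psma2), -0.12 to 0.015 (Psmb1), -0.070 to 0.065 (Psmb6), -0.21 to 0.0098 (Psmc6), -0.087 to 0.050 (Psmd5), -0.027 to 0.048 (Psmd8) and -0.099 to 0.027 (Psme1). Values that kept their sign without 1 library still ranged from -0.27 to -0.0058 (Psmc5), -0.23 to -0.035 (Psmb4), -0.21 to -0.068 (Psmb3), -0.16 to -0.077 (Psma3), -0.16 to -0.046 (Psme2), -0.13 to -0.015 (Psmf1), -0.12 to -0.016 (Psmc3), -0.11 to -0.0037 (Psmb5), 0.012 to 0.14 (Psmb7), 0.13 to 0.27 (Psmd1), 0.17 to 0.30 (Psmd6) and 0.032 to 0.23 (Psme4). Without mouse 1 of both genotypes they were 0.00019 (Psmb5), -0.014 (Psmb7) and 0.054 (Psmc6).

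Mouse numbers do not pair the samples by the labels, and deviations of same-numbered mice correlated with r = 0.29, 0.0094 and 0.065 for mice 1, 2 and 3 across 9565 genes. For differently numbered mice, r ran from -0.222 (LAIR-1-deficient mouse 1 with wild type mouse 3) to 0.184 (LAIR-1-deficient mouse 2 with wild type mouse 3). With mouse number as a block, 0 members were called, 1 gene was lower, the members' median was -0.047 and 448 genes had an unadjusted p under 0.05, against 311 without the block. Low counts limit Psmg3, Psmd9, Psmg1 and Psmb11 most. Counting depth alone covers no spread between mice.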
